A study of Mus musculus with 2 samples.

Results

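Mir219a-1, Mir219a-2 and Mir338 are 3 of the 2202 microRNA genes counted in this microRNA-seq series of mouse hippocampus, and they were taken by symbol, because they are known as microRNAs of myelinating oligodendrocytes. Male B6CASTF1/J mice gave the tissue at an age of 36 days, with no treatment and no modified allele in the labels. The labels call it a layer of hippocampus tissue and do not say which layer. There is 1 group of 2 libraries, labelled biological replicates 1 and 2, and no control group. Each library was made from its own tissue sample, but both samples carry 1 donor label. Whether that label names an animal or the strain is not stated, so the SD may or may not hold the spread between animals. The p-values compare these samples alone and, except where a spread is allowed for, cover counting error only. B6CASTF1/J is the F1 cross of C57BL/6J with CAST/EiJ, so every mouse carries CAST/EiJ alleles beside those of the reference genome, and their effect on read mapping was not tested. All 3 genes had 10 or more counts in both libraries.

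Oligodendrocytes wrap axons of the central nervous system in myelin and arise from proliferating progenitors. The microRNAs miR-219 and miR-338 are known to accumulate as progenitors leave the cell cycle and differentiate, and they repress transcripts that hold cells in the progenitor state, such as those of the growth factor receptor Pdgfra and the transcription factors Sox6 and Hes5. A microRNA gene gives a hairpin transcript, from which the enzymes Drosha and Dicer release a mature arm on the 5′ side (5p) or the 3′ side (3p). The bases 2 to 8 of a mature arm, its seed, are the main determinant of which messenger RNAs it pairs with.

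The mature sequences show which products the genes share and which they do not. They come from RefSeq on GRCm38.p6, where all 3 genes were matched, and the seed is in capitals.
miR-219a-5p: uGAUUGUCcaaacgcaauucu
miR-219a-1-3p: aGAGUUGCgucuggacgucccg
miR-338-3p: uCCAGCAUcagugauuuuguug
miR-338-5p: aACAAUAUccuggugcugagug
The first of these is encoded by both Mir219a genes and the others by 1 gene each. The seeds all differ, and each occurred in 0 other mature microRNAs of that table. The other arm of Mir219a-2, known as miR-219a-2-3p, is not listed in that table, so its sequence and seed are not given.

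The whole hairpins show why a read of miR-219a-5p alone cannot be given to 1 gene. In the Mir219a hairpins the capitals mark the longest stretch they have in common, and in Mir338 they mark the mature arms.
Mir219a-1: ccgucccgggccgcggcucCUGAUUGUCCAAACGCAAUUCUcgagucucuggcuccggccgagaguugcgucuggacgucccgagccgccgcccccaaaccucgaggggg
Mir219a-2: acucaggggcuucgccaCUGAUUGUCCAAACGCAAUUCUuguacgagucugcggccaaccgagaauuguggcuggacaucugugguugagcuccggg
Mir338: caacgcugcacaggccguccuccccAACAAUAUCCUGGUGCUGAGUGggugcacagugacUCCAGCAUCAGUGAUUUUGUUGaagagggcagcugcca
The shared stretch is 22 bases long, and all 21 bases of miR-219a-5p lie inside it. A read of miR-219a-5p alone therefore matches both genes equally, and reads that match several places are outside the gene counts. Of the 20-base windows of the hairpin, 3 of 91 in Mir219a-1 and 3 of 78 in Mir219a-2 occur in another microRNA gene at another place, and at 23 bases none does. The counts of both Mir219a genes are uncertain for this reason, and how many of their reads are outside the counts was not measured. In Mir338, 0 of 79 windows of 20 bases occur in another microRNA gene. At 20 bases the search also covered all other annotated transcripts. There 69 of the 91 windows of Mir219a-1 occur in Gm26940, which overlaps it on the same strand, and 0 windows of Mir219a-2 or Mir338 occur. At 23 bases it covered microRNA genes alone. The rest of the genome was not searched.

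The 3 genes lie on different chromosomes, each on the minus strand, and each is overlapped by a microRNA gene on the other strand. Positions are those of GENCODE M21 on mm10. Mir219a-1 (ENSMUSG00000065555.1) is at chr17:34024983-34025092, 303 bases from Ring1, which encodes a Polycomb protein, and 88 of its 110 bases overlap an annotated long non-coding RNA gene of the same strand, Gm26940. Mir219a-2 (ENSMUSG00000065485.1) is at chr2:29845631-29845727, between genes, 629 bases from Urm1. Mir338 (ENSMUSG00000065600.1) is at chr11:120014765-120014862, on the strand of Aatk, which encodes a kinase of neural tissue. It sits in the 1724-base intron between exons 7 and 8 of the transcript Aatk-201. The opposite-strand genes are Mir219c over 60 bases of Mir219a-1, Mir219b over 65 bases of Mir219a-2 and Mir3065 over 87 bases of Mir338.

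**Figure D1:**
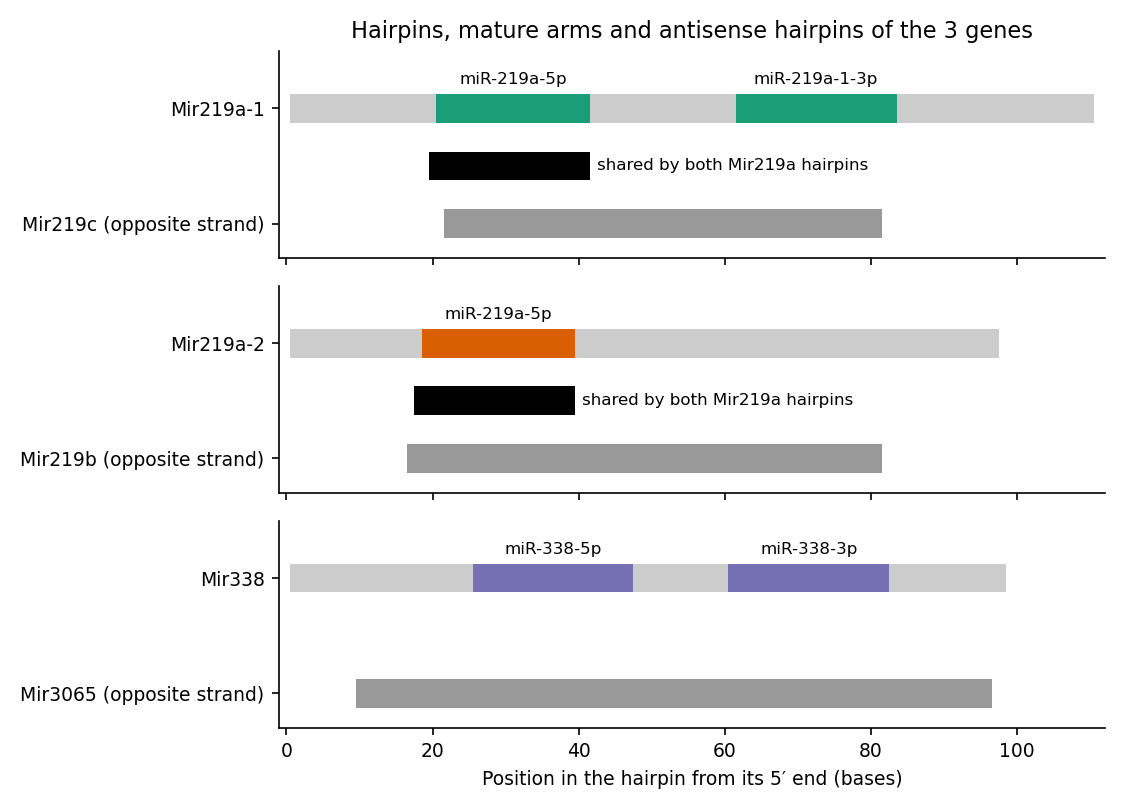
Each panel draws 1 hairpin to scale in bases from its 5′ end, with mature arms listed in RefSeq in colour, the stretch common to both Mir219a hairpins in black and the antisense hairpin in dark grey. The 22-base common stretch covers the 5p arm of both Mir219a genes, and the antisense hairpins span most of each drawn arm.

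Own-strand counts of all microRNA genes summed to 4404040 in replicate 1 and to 5279877 in replicate 2. Reads that match several places made up 40.3% and 46.5% of the reads. Levels are given in CPM, the count per 1000000 own-strand counts of the library. A read spans a whole mature microRNA, so counts were not divided by gene length, and a comparison between genes is one of CPM and need not be one of molecules, since ligation and amplification can favour some sequences and no value here measures that. In whole tissue, fewer cells of a type and less RNA per cell cannot be told apart. Intervals and floors cover counting error only: the reads carry no stated molecular identifiers, so PCR copies of 1 molecule are counted apart.

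Mir219a-2 and Mir338 were abundant in this hippocampus tissue in both libraries, while Mir219a-1 was near the middle of the detected genes. Mir219a-2 had 15119 counts in replicate 1 and 18950 in replicate 2. These are 3433 CPM (95% exact Poisson interval 3378 to 3488) and 3589 CPM (3538 to 3641), a mean of 3511 ± 110 CPM (SD, n = 2). The libraries lay close together for this gene, and its level ranked 50 in replicate 1 and 51 in replicate 2. Which mature arm its counts hold was not measured, so its level is not that of miR-219a-5p. Mir338 had 10465 and 10877 counts, or 2376 CPM (2331 to 2422) and 2060 CPM (2022 to 2099), a mean of 2218 ± 224 CPM (SD, n = 2), with ranks 60 and 66. Both libraries of Mir338 lay below both libraries of Mir219a-2.

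Mir219a-1 had 42 counts in replicate 1 and 65 in replicate 2. These are 9.54 CPM (6.87 to 12.9) and 12.3 CPM (9.50 to 15.7), a mean of 10.9 ± 1.96 CPM (SD, n = 2). It ranked 310 and 302 of the genes, of which 778 had a count in at least 1 library. Its level lay far above the floor that a count of 0 allows, 3 counts or 0.681 CPM in replicate 1 and 0.568 CPM in replicate 2.

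**Figure D2:**
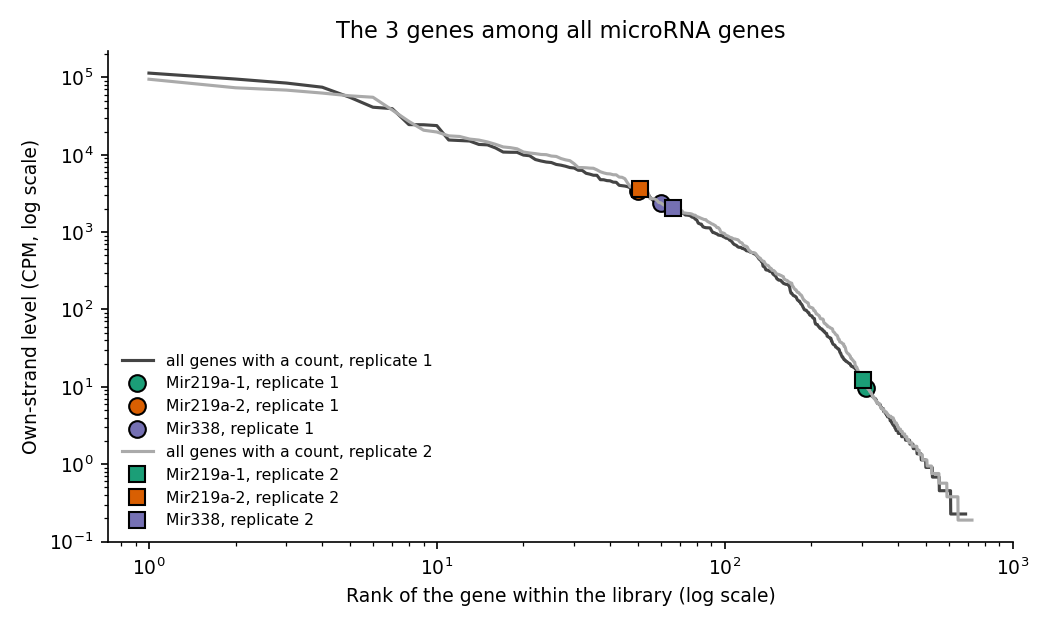
Own-strand CPM of every microRNA gene with a count is drawn against its rank within the library, both on log axes, with circles for replicate 1 and squares for replicate 2. Mir219a-2 and Mir338 sit between ranks 50 and 66 in both libraries, and Mir219a-1 between ranks 302 and 310.

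The genes nearest in level, by mean CPM over the 2 libraries, were named for each of the 3 genes. Next above Mir219a-2 were Mir30e at 3940 ± 2218 CPM and Mir187 at 3773 ± 142 CPM, and next below were Mir335 at 3459 ± 178 CPM and Mir342 at 3413 ± 1281 CPM (SD, n = 2). Around Mir338 lay Mir181d at 2306 ± 253 CPM, Mir138-2 at 2273 ± 480 CPM, Mir874 at 2187 ± 761 CPM and Mir222 at 2098 ± 1716 CPM. Around Mir219a-1 lay Mir670, Mir9-1, Mir34b and Mir544, between 10.3 and 11.4 CPM. For 11 of these 12 neighbours the 2 library values overlapped those of the member, so the order among them is within the spread of the libraries, and the exception was Mir187.

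Within a library, Mir219a-2 exceeded its paralogue Mir219a-1 by a large factor in counts. The ratio was 360 in replicate 1 (95% exact binomial interval 266 to 500) and 292 in replicate 2 (229 to 378), with a mean of 326 ± 48.4 (SD, n = 2). The intervals overlap. Since reads that match both genes are in neither count, the ratio compares the reads that could be placed, not the output of the 2 genes. Mir338 exceeded Mir219a-1 by 249 times (184 to 346) and 167 times (131 to 217). Mir219a-2 exceeded Mir338 by 1.44 times in replicate 1 (1.41 to 1.48) and by 1.74 times in replicate 2 (1.70 to 1.78), intervals that do not overlap. Reads of miR-219a-5p alone are outside both Mir219a counts, while Mir338 shares 0 windows of 20 bases with another microRNA gene. The ratios with Mir338 therefore also compare placed reads, not the output of the genes.

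Large differences in counts between loci that share a long stretch were not limited to the Mir219a pair. Every pair of microRNA genes at different places was taken that shares 22 bases or more and has 10 or more counts for each gene in both libraries, a rule set after the values were seen. It gave 34 pairs of 58 genes, some of them in several pairs, with the gene of more counts set over the other. The median ratio over the 33 other pairs was 4.54 in replicate 1 and 4.00 in replicate 2. Among the pairs the Mir219a ratio, 360 and 292, was exceeded in both libraries by 1, Mir107 over Mir103-1, at 1463 (837 to 2831) and 584 (359 to 1021). Next below it were Mir107 over Mir103-2, at 129 and 146, and Mir181b-2 over Mir181b-1, at 108 and 175. Mir138-1 over Mir138-2, of the oligodendrocyte list, stood at 1.92 and 1.96. All these pairs can lose reads that match both loci, and no test across pairs was made. The rule did not ask whether the genes of a pair encode the same mature arm, as the Mir219a genes do.

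Nearly all reads counted at the 3 loci came from the annotated strand of the member, and the antisense hairpins were at or under the counting floor. Reads of either strand inside the stretch common to the Mir219a loci can be outside the counts. Mir219b, the antisense gene of Mir219a-2, had 0 counts in replicate 1, which allows up to 0.0198% of the reads of the pair, and 1 in replicate 2, a share of 0.00528% (95% exact Clopper-Pearson interval 0.000134 to 0.0294). Mir3065, the antisense gene of Mir338, had 1 and 2 counts, or 0.00955% (0.000242 to 0.0532) and 0.0184% (0.00223 to 0.0664). Mir219c, the antisense gene of Mir219a-1, had 2 counts of 44 in replicate 1, or 4.55% (0.555 to 15.5), and 0 in replicate 2, which allows up to 4.62%. At this depth the antisense genes were not detectable above 3 counts in either library.

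The deposited counts give a column without regard to strand, in which a read that overlaps 2 genes is set aside as ambiguous. There Mir219a-2 had 0 and 1 counts and Mir338 had 0 and 0. Mir219a-1 fell in the same way, from 42 to 1 and from 65 to 1. The column for the opposite strand of the antisense genes held the reads that were set aside: 15119 and 18949 at Mir219b, 10465 and 10877 at Mir3065, and 41 and 64 at Mir219c. Together the 3 genes gave 25625 of the 295823 ambiguous reads of replicate 1 (8.66%) and 29890 of the 502531 of replicate 2 (5.95%). Across the annotation 64 genes overlap a microRNA gene on the other strand. Of these, 27 had 10 or more own-strand counts in both libraries, and all 27 lost at least 90% of them in that column. By mean CPM, Mir219a-2 was number 6 of the 27, Mir338 number 7 and Mir219a-1 number 27.

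**Figure D3:**
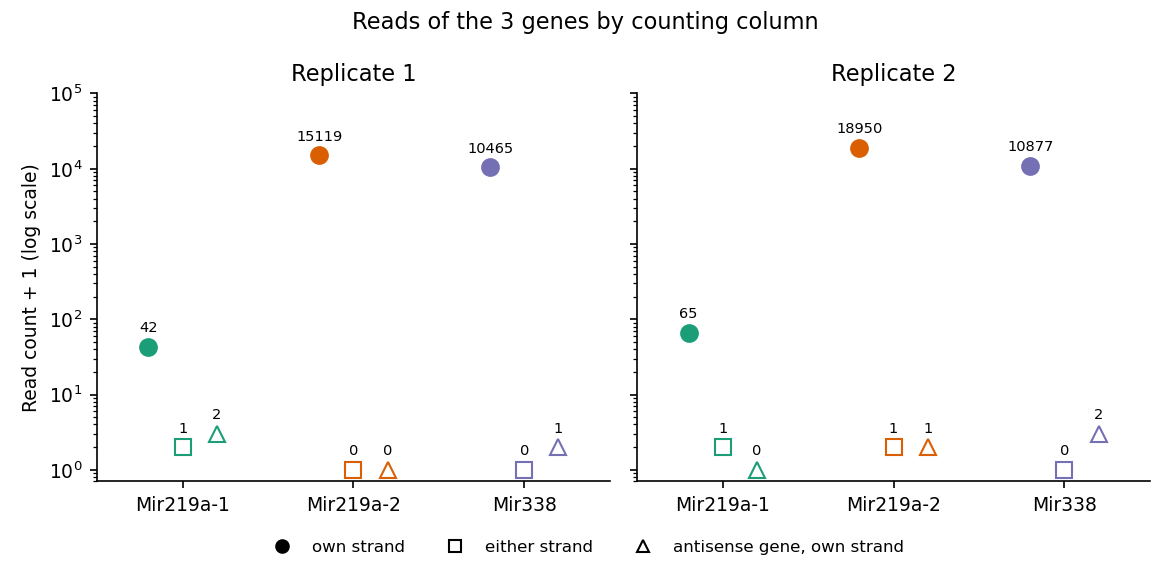
Read counts plus 1, on a log axis, are drawn for each gene and library, with filled circles for the own strand, open squares for either strand and open triangles for the antisense gene on its own strand. The filled circles lie between 42 and 18950, and every open symbol lies between 0 and 2.

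Replicate 2 was compared with replicate 1 over all genes with 10 or more counts in total, which describes these libraries and not a condition. A two-sided exact sign-flip test of 2 libraries cannot give a p below 0.5, and the levels were therefore left untested across samples. The test used was a two-sided exact conditional binomial test of the counts with TMM scaling (a trimmed mean of the log ratios) and Benjamini-Hochberg adjustment over 504 genes, and it takes account of counting error alone. It called 55.8% of the tested genes, 32.5% higher and 23.2% lower in replicate 2, and 96.9% of the 96 genes with a mean of 1000 CPM or more. A call for an abundant gene is therefore near the background.

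Mir338 was lower in replicate 2, with a log2 ratio of -0.22 (95% interval -0.26 to -0.18; adjusted p = 6.5e-29, exact conditional binomial test). Mir219a-2 had a log2 ratio of 0.047 (0.016 to 0.078; adjusted p = 0.00595, exact conditional binomial test), but with DESeq2 size factors, where 54.4% of genes were called, it was -0.0048 and with a minimum of 100 counts, where 80.5% of genes were called, -0.087, so its direction depends on the scaling. Mir219a-1 did not pass the test, at 0.32 (-0.23 to 0.95; adjusted p = 0.345, exact conditional binomial test). Its interval leaves room for a level nearly equal in the libraries and for a large difference.

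The 2 abundant genes differed less between the libraries than most genes did. The median absolute log2 ratio was 0.45 over the 504 tested genes and 0.53 over the 96 abundant ones. Of the 504 genes, 471 had a larger absolute ratio than Mir219a-2, 377 a larger one than Mir338 and 316 a larger one than Mir219a-1. The coefficient of variation between the libraries, from edgeR's common dispersion, was 0.43. When the test allowed a coefficient of variation of 0.1, neither Mir338 (adjusted p = 0.45, exact beta-binomial test) nor Mir219a-2 (adjusted p = 0.922, exact beta-binomial test) passed, while 30.2% of the genes still did. None of the 3 genes passed at 0.3, where 2.78% of genes did, or at edgeR's 0.43, where 0.595% did.

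The other microRNAs of oligodendrocyte differentiation ranged from below Mir338 to above Mir219a-2 in level, and most of them were higher in replicate 2. The list holds 9 genes, and its 3 highest were Mir23a at 5738 ± 1394 CPM, Mir138-1 at 4415 ± 988 CPM and Mir219a-2 (SD, n = 2). Mir138-1 and its paralogue Mir138-2 are known to favour early differentiation, and Mir23a is known to repress lamin B1, whose excess disturbs myelin. Mir146 stood at 683 ± 69.5 CPM, Mir184 at 24.6 ± 0.498 CPM and Mir32 at 21.6 ± 5.85 CPM. Mir23a, Mir138-1, Mir138-2 and Mir146 each share 20 bases with a paralogue, so their counts are uncertain too. The list summed to 16897 CPM in replicate 1 and 20895 CPM in replicate 2, of which Mir219a-1, Mir219a-2 and Mir338 gave 34.4% and 27.1%. Of the 6 other genes, 5 were higher in replicate 2, 0 were lower and 1, Mir184, did not pass, against 32.5% higher over all tested genes. Their median log2 ratio was 0.43, against 0.05 over all tested genes. Mir146, 1 of the 5, is also on the astrocyte list. Which cells of this bulk tissue gave the reads of these genes was not measured, so they need not be oligodendrocytes. Mir23a, Mir138-1 and Mir138-2 have means above 1000 CPM, where 96.9% of genes were called in either direction. With a minimum of 100 counts 3 of the 6 were higher, beside 122 of all 313 genes tested there. With a coefficient of variation of 0.1 none of the 6 passed, beside 30.2% of all tested genes.

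The list of microRNAs of progenitors or of restraint on differentiation spanned a wider range of levels. Its 3 highest were Mir125a at 9401 ± 2066 CPM, Mir17 at 740 ± 120 CPM and Mir212 at 461 ± 23.2 CPM (SD, n = 2). Mir17 belongs to a cluster known to drive proliferation of the lineage. The other 6 genes lay between 0.568 CPM, for Mir19b-1 with 0 and 6 counts, and a mean of 225 CPM for Mir145a. Mir9-1, Mir9-2 and Mir9-3 are among these, and each shares 20 bases with at least 2 other genes. Mir19b-1 and Mir27a each share 20 bases with 1 other gene, so these counts are uncertain too. Of 8 tested genes 4 were higher in replicate 2, 1 was lower and 3 did not pass, with a median log2 ratio of 0.17, beside 32.5% higher and 23.2% lower over all tested genes. Mir125a, 1 of the 4, has a mean above 1000 CPM, where 96.9% of genes were called in either direction. With DESeq2 size factors 3 were higher, 1 lower and 4 did not pass, beside 54.4% of all tested genes called. With a coefficient of variation of 0.1 only 1 of the 8 passed, beside 30.2% of all tested genes. With 0.3 or edgeR's value 0 did, beside 2.78% and 0.595% of all tested genes, so these zeros are near the background. Mir145a is also a vessel wall microRNA, and most of this list is expressed outside the oligodendrocyte lineage.

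**Figure D4:**
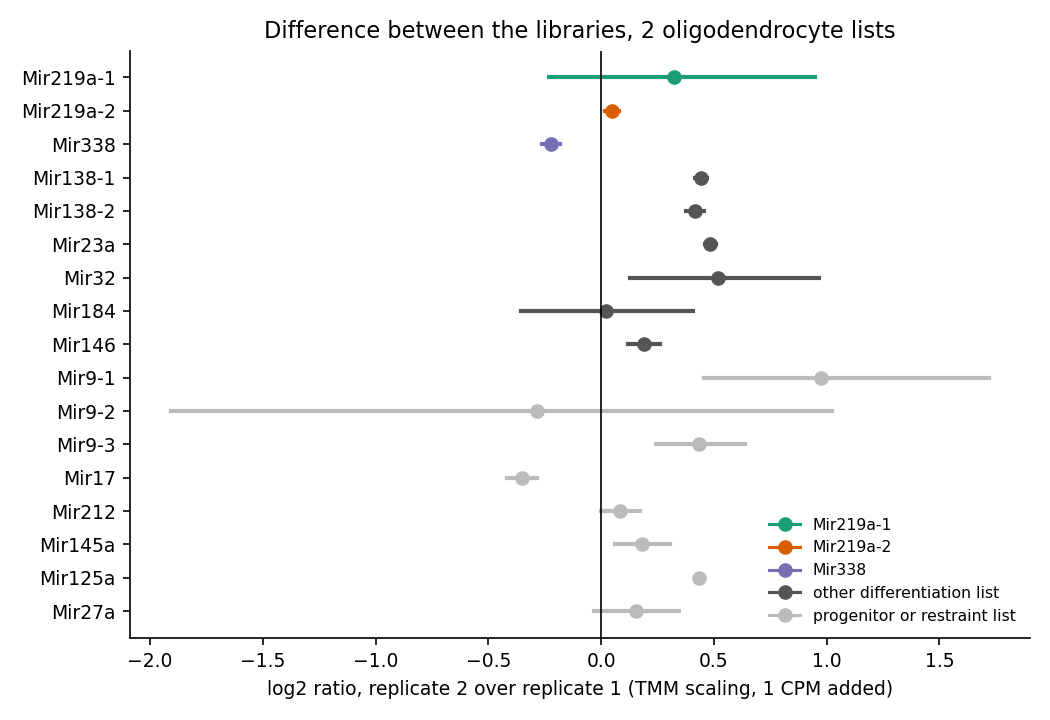
Points are log2 ratios of replicate 2 over replicate 1 for the tested genes of both oligodendrocyte lists, and lines are 95% exact intervals for counting error. Mir338 at -0.22 and Mir17 lie left of 0 with their intervals, most others lie right of 0, and Mir219a-2 lies at 0.047.

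Markers of other cell types differed between the libraries as well. More of them were higher than lower in replicate 2, although most lists held genes of both directions. All 6 of these lists had a higher sum in replicate 2. The neuronal list, of which 10 of 13 genes had 10 or more counts in both libraries, summed to 92757 CPM in replicate 1 and 101789 CPM in replicate 2 and was led by Mir127 at 56482 ± 1909 CPM. Its Mir124a-3 had 0 counts in both. Reads that match several places are outside the counts, so this 0 does not show that its mature microRNA is absent. Of 11 tested neuronal genes 8 were higher in replicate 2, 2 (Mir132 and Mir134) were lower and 1 did not pass. The astrocyte list (6 of 6 genes, led by Mir29a) summed to 12528 and 15517 CPM, with 4 genes higher, 1 (Mir21a) lower and 1 not past the test. The microglia and leukocyte list (5 of 5, led by Mir342) summed to 3433 and 5443 CPM, with 4 genes higher and 1 (Mir155) lower. The vessel wall list (3 of 4 genes, led by Mir126a, with Mir126b at 0 counts) summed to 16250 and 43835 CPM. Mir126a alone went from 9729 to 37937 CPM, while Mir143 was lower, at 6311 and 5658 CPM, and Mir145a higher, at 209 and 241 CPM. The choroid plexus list (4 of 5, led by Mir204) summed to 713 and 1337 CPM, with 4 genes higher and 1 not past the test. The red blood cell list (3 of 3, led by Mir451a) summed to 66.8 and 113 CPM, with 2 genes higher and 1 not past the test. Such a sum follows its most abundant gene. The summed CPM of Mir219a-1, Mir219a-2 and Mir338 went from 5819 to 5662. These counts stand beside 32.5% of genes higher and 23.2% lower over all tested genes, and beside 96.9% called among genes of 1000 CPM or more. With a coefficient of variation of 0.3, 1 of the 5 tested choroid plexus genes passed. The other lists named here had 0, beside 2.78% of all tested genes. Without a filter on low counts, where 35.3% of genes were called, the microglia and leukocyte list had 0 lower genes. The lower genes named here were picked after their values were seen. The part of other cell types in the differences of the 3 genes was not tested. No microRNA on these lists is particular to the hippocampus, so the labelled tissue could be checked only as far as brain.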

How the data were processed

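Small RNA reads of total RNA from 2 hippocampus samples were deposited by the authors as raw counts per microRNA gene, 1 library per file and without normalization. Reads were mapped to mm10 and assigned to GENCODE M21 genes, as notes beside the deposited counts state. Aligner and adapter trimming: not given in the sources used here. Values alone served to tell the 3 count columns apart (either strand, own strand, opposite strand). Own-strand counts were used, because reads over 2 overlapping genes are missing from the either-strand column. Lines that name no gene (unmapped, several places, no feature, ambiguous) took 64.7% (replicate 1) and 65.4% (replicate 2) of reads and entered neither library sizes nor tests.

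CPM, TMM factors and dispersion (edgeR 4.0.16, R 4.3.3), DESeq2 1.42.0 size factors and exact tests (scipy 1.17.1) were computed from the counts. With 1 group there is no contrast for a quasi-likelihood test. Log2 ratios have 1 CPM added, and their intervals come from the counts alone. A gene was called at an adjusted p under 0.05. Genes named are the members, genes that overlap them, both oligodendrocyte lists, 2 neighbours on each side by mean CPM and the highest gene of each other list, with any others said to be picked later or a member of a counted list at 0. Members and lists were chosen with earlier results of these data known. Sequences are from RefSeq on GRCm38.p6, whose hairpin positions are those of GENCODE M21 for the 3 genes. The alternatives were either-strand counts, other denominators and scalings, other minimums and pseudocounts, an allowed spread between libraries and each library alone.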

Additional observations from a re-analysis of the deposited data

How the results depend on the processing

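In the alternatives run, levels moved with the strand and the denominator. With either-strand counts, which set aside reads in overlapping genes, the mean was 0.226 CPM for Mir219a-1, 0.105 CPM for Mir219a-2 and 0 CPM for Mir338. Per 1000000 reads of the whole file the levels were 3.82, 1228 and 777. With TMM or DESeq2 scaling the 3 levels stayed within 1 SD, and with 1 library left out each level or ratio is the value of the other library. The library log2 ratio of Mir219a-2 reversed to -0.0048 with DESeq2 size factors (adjusted p = 0.843, exact test) and to -0.087 with a minimum of 100 counts (adjusted p = 4.98e-08, exact test). That minimum moves the log2 ratio of the effective library sizes from 0.28 to 0.41, and it split the calls into 122 higher and 130 lower, against 164 and 117. When the exact test allowed a coefficient of variation of 0.1, 0.3 or 0.43, the ratios of Mir219a-2 (0.047) and Mir338 (-0.22) no longer passed, and 152, 14 and 3 genes were called in place of 281. Over the 9 alternatives the ratio of Mir338 lay between -0.36 and -0.21, with adjusted p between 2.04e-72 and 1 in the exact tests. Mir219a-1 lay between 0.20 and 0.34 and passed in none. With either-strand counts the members fell below the minimum, so their library ratios and the ratios between them have no value there. With 1 library there is no library comparison. The 42 and 65 counts of Mir219a-1 limit its precision. The antisense genes had too few counts for a level. For Mir219b and Mir219c, reads inside the stretch common to the Mir219a loci can be outside the counts at any depth. How much depth or such reads mattered was not tested.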
